A study of Homo sapiens with 12 samples.

Results

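The androgen receptor is the main transcription factor of prostate luminal cells, and in prostate cancer it keeps this role. It does not open closed chromatin well on its own: pioneer factors such as FOXA1, HOXB13 and GATA2 bind first or alongside it and set which enhancers it can use. Once on DNA, the receptor recruits the p160 coactivators NCOA1, NCOA2 and NCOA3, which in turn bring histone acetyltransferases and methyltransferases, or, when inactive or bound to antagonist, the corepressor NCOR1 with its histone deacetylase. The glucocorticoid receptor NR3C1 is a close relative that recognises nearly the same DNA element and can use many of the same enhancers. These 8 genes, chosen by name and found in the count files by their Ensembl identifiers, were followed here among the 54127 genes counted.

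The data were RNAseq of C4-2 cells grown in RPMI with fetal bovine serum; the line descends from the LNCaP prostate cancer line, responds to androgen and makes its receptor. One group of 6 samples received DMSO, the vehicle, and the other group of 6 received PBKi, the compound HI-TOPK-032, which inhibits the kinase PBK, at 1 µM for 6 h. Both groups had the same cells and the same serum-containing medium, with no added androgen or glucocorticoid named in the labels. The labels do not say whether the samples came from separate cultures, and p-values then measure only the spread between these samples; they describe the cells as flow sorted without naming a gate. A single line was used, which limits how far the values speak for prostate cancer in general.

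Depth was 9663203 to 28029908 reads on genes in DMSO and 13122415 to 22817803 in PBKi. Levels are given in CPM, the read count scaled to library size (counts per 1e+06 reads on genes, TMM-normalised). Of 9 luminal epithelial markers, all but ACP3 (4.65 to 7.12 CPM) were abundant in every sample. The summed level of the 9 was 4599 to 5431 CPM in DMSO and 2385 to 3220 CPM in PBKi. KLK3, KLK2 and TMPRSS2 were lower and FOLH1 higher in every PBKi sample, whereas KRT8, KRT18, EPCAM, CDH1 and ACP3 overlapped between the groups. Summed markers stayed at or below 2.14 CPM in every sample for basal (3 genes), immune (6 genes) and neuroendocrine cells (5 genes), with MS4A1 and INSM1 at 0 throughout. They were 20.5 to 27.0 CPM for fibroblasts (7 genes), mostly COL1A1 with DCN and LUM near 0, and 3.14 to 7.25 CPM for endothelium (3 of 4 genes matched), nearly all VWF. The share of reads that fell on no annotated gene was 5.74% to 6.96% in DMSO samples and 5.94% to 9.30% in PBKi samples, with PBKi replicates 3 and 6 highest. Replicates 1 to 3 and replicates 4 to 6 stood apart on the second principal component, which held 9.76% of the variance. DMSO replicate 5, with the fewest reads on genes (9663203, from 3 lanes), lay farthest out on it. Its value was -27.6, against -9.87 to 17.1 in the other samples. Values within each set of replicates are given beside the pooled ones.

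The 3 pioneer factors fell with PBKi, 2 of the 3 p160 coactivators rose by a small amount, and NR3C1 rose from a level near 0. Of the 8 genes, 3 rose (NCOA2, NCOA3 and NR3C1), 3 fell (FOXA1, HOXB13 and GATA2) and NCOA1 and NCOR1 did not pass an adjusted p of 0.05 in the quasi-likelihood test of edgeR, adjusted over 14505 genes by the Benjamini-Hochberg method. The background was high, since 41.7% of all tested genes passed, 20.1% rising and 21.5% falling, so 6 of 8 is read against that share. NR3C1 met the count minimum only through the PBKi samples and could be called only as a rise; of the other 7 genes 5 passed and 3 had groups that did not overlap. Of the genes that passed, 48.3% rose, or 60.0% when library totals replaced TMM. The groups did not overlap for FOXA1, HOXB13 and GATA2, all lower in PBKi, and for NR3C1, higher in PBKi. Over all tested genes 20.1% had groups that did not overlap, 10.5% higher and 9.68% lower in PBKi. The median log2 fold change was 0.051 over the 8 genes and -0.012 over all tested genes. In bulk RNA fewer cells of a type and less RNA per cell cannot be told apart, which holds for every change below.

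**Figure D1:**
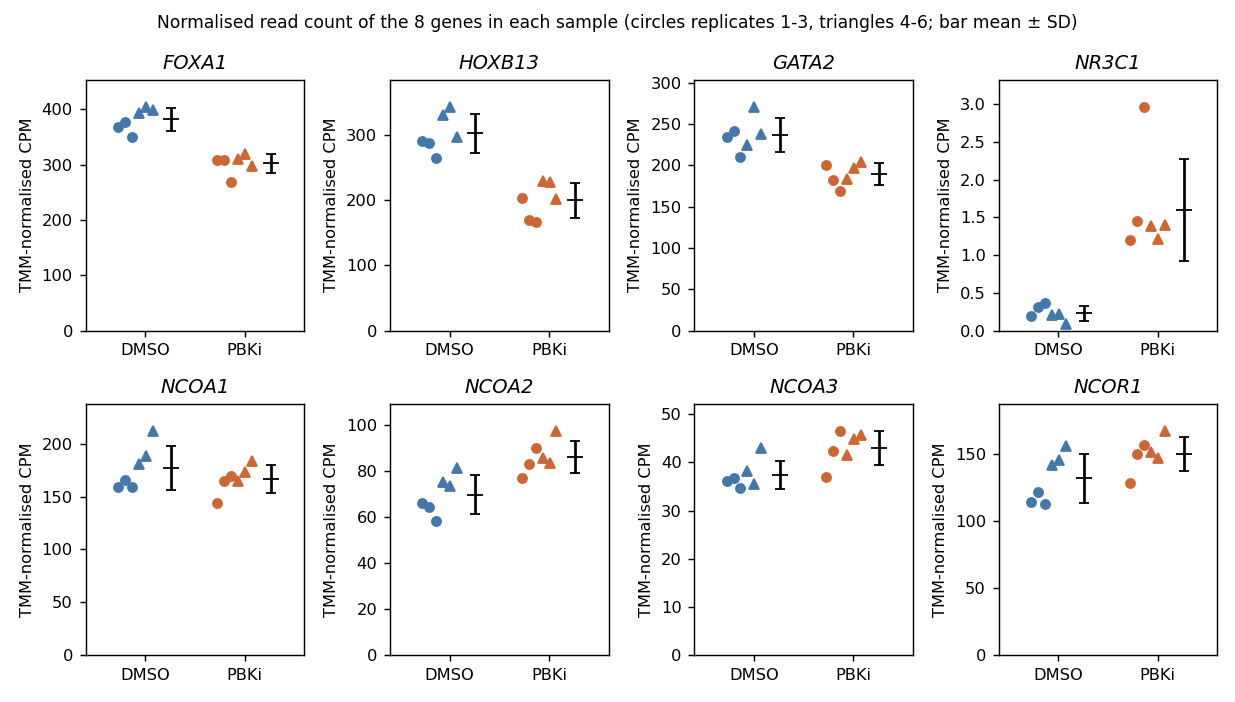
Normalised read count (TMM-normalised CPM, each panel from 0) of the 8 genes in the 6 DMSO and 6 PBKi samples, with circles for replicates 1 to 3, triangles for replicates 4 to 6 and a black bar for the mean ± SD of 6. FOXA1, HOXB13 and GATA2 lie lower in all PBKi samples, NR3C1 higher in all, and NCOA1, NCOA2, NCOA3 and NCOR1 overlap between the groups.

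FOXA1 (ENSG00000129514, chromosome 14 from 38058757 to 38065264 on the minus strand of GRCh37) encodes the forkhead pioneer factor that opens chromatin at luminal enhancers. Its level was 350.2 CPM at the lowest, 386 at the median and 405 at the highest in DMSO, and 269, 309 and 319 CPM in PBKi. All 6 PBKi samples lay below all 6 DMSO samples, with replicate 3 the lowest sample of each group. The means were 382 ± 21.0 and 303 ± 17.7 CPM (SD, n = 6 each), a fall of 20.8% on the fitted scale. In log2 units this was -0.34 (SE 0.054, 95% interval -0.45 to -0.22, adjusted p = 8.13e-05 by edgeR). A two-sided exact permutation test on log2 CPM gave p = 0.00216, the smallest value that 924 splits of 12 samples allow. Replicates 1 to 3 alone gave -0.30 and replicates 4 to 6 alone gave -0.37, both past the threshold.

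HOXB13 (ENSG00000159184, chromosome 17 from 46802125 to 46806112, minus strand) encodes a homeobox factor that is made in few adult tissues besides the prostate and binds many androgen receptor sites. DMSO samples ran from 264 through a median of 293 to 343 CPM, and PBKi samples from 166 through 202 to 229 CPM. The groups did not overlap, and within PBKi replicates 2 and 3 were the lowest. The means were 302 ± 29.2 and 199 ± 27.4 CPM (SD, n = 6 each), so HOXB13 fell by 33.9%, more than FOXA1 or GATA2 in the fitted values, although no test compared the genes with each other. Its log2 fold change was -0.60 (SE 0.085, 95% interval -0.78 to -0.42, adjusted p = 2.61e-05 by edgeR; two-sided exact permutation p = 0.00216). Both sets of replicates passed with a fall, -0.64 for 1 to 3 and -0.56 for 4 to 6.

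GATA2 (ENSG00000179348, chromosome 3 from 128198270 to 128212044, minus strand) encodes a zinc finger factor that acts before and together with the androgen receptor at enhancers. Its level ran from 209.9 through 236 to 271 CPM in DMSO and from 169 through 190.3 to 204 CPM in PBKi. The groups were separate, but only just, since the highest PBKi sample (replicate 6, 204 CPM) and the lowest DMSO sample (replicate 3, 209.9 CPM) were neighbours. Means of 237 ± 20.5 and 189 ± 13.3 CPM (SD, n = 6 each) gave a fall of 19.9% and a log2 fold change of -0.32 (SE 0.063, 95% interval -0.45 to -0.19, adjusted p = 0.000582 by edgeR; two-sided exact permutation p = 0.00216). Taken alone, replicates 1 to 3 gave -0.31 and replicates 4 to 6 gave -0.33, both past the threshold.

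GATA2 has an antisense neighbour, GATA2-AS1, that shares 78 exonic bases with it on the opposite strand. Without counting by strand, which the sources do not state, reads from the shared bases cannot be assigned to either gene. GATA2-AS1 moved the other way, from 33.1 ± 7.51 to 48.4 ± 5.49 CPM (SD, n = 6 each; log2 fold change 0.56, adjusted p = 0.000642 by edgeR). FOXA1 likewise shares 16 exonic bases with TTC6, which fell from 37.5 ± 3.47 to 19.0 ± 2.53 CPM (log2 fold change -0.99, adjusted p = 8.48e-08 by edgeR). The shared bases made up 0.362% of the exon bases of FOXA1 and 1.59% of those of GATA2. The part of these neighbours in the values of FOXA1 and GATA2 was not tested.

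RefSeq lists 2 starts for GATA2, and the 250 bases before each are shown because the gene fell and its reads cannot say from which start its transcripts came. Both windows were matched to GRCh37, lie on the minus strand, are written 5′ to 3′ and overlap no annotated exon. Capitals mark a GC box (the letters GGGCGG, here read on the other strand as CCGCCC) in the first. In the second they mark a CCAAT box, here read on the other strand as ATTGG.
GATA2 first start, chr3:128212045-128212294: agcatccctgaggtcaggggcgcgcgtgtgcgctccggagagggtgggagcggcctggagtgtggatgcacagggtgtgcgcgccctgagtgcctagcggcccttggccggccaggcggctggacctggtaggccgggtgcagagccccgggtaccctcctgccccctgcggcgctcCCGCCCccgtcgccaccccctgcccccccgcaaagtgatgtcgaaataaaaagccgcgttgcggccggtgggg
GATA2 second start, chr3:128207374-128207623: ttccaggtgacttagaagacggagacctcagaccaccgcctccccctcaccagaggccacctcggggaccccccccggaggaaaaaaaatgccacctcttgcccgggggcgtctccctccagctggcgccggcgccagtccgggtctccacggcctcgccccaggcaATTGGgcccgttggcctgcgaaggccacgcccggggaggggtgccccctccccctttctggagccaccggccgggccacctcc
The first window held 72.8% G and C with 24 CpG and the second 71.2% with 18 CpG, against medians of 58% and 11 CpG over the 35116 RefSeq windows of this length. The capitals begin 73 and 83 bases before the start. On either strand a GC box was found in 42.6% and a CCAAT box in 32.0% of all windows. Neither window held, on either strand, the forkhead motif searched (TGTTTAC, in 2.98% of all windows). The same was true of the GATA motif (AGATAA, in 9.17%) and of the shorter steroid receptor motif (AGAACA, in 12.4%). The matches are a description of letters and not of bound sites.

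NR3C1 (ENSG00000113580, chromosome 5 from 142657496 to 142815077, minus strand), the glucocorticoid receptor gene, was almost silent in DMSO. The raw counts were 1 to 10 per sample in DMSO and 16 to 70 in PBKi. In normalised units this was 0.0839 at the lowest, 0.212 at the median and 0.361 CPM at the highest in DMSO, and 1.20, 1.39 and 2.97 CPM in PBKi. Every PBKi sample was above every DMSO sample, and PBKi replicate 3, with 2.97 CPM, was far above the other 5 PBKi samples, which lay between 1.20 and 1.45 CPM. This was also the sample with the most reads outside annotated genes (9.30%), and the part of that in its value was not tested.

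The log2 fold change of NR3C1 was 2.72 (SE 0.33, 95% interval 2.02 to 3.43, adjusted p = 5.15e-06 by edgeR; two-sided exact permutation p = 0.00216). Summed over samples, 24 reads in DMSO and 175 in PBKi gave a ratio of 7.13 per read on genes, with an exact 95% interval of 4.64 to 11.4 that covers counting error only. Without PBKi replicate 3 the ratio was 5.53 (3.53 to 9.02). The sets of replicates gave like values, a log2 fold change of 2.76 for 1 to 3 and 2.92 for 4 to 6. NR3C1 reached 10 counts in 1 DMSO sample and in all 6 PBKi samples, so it entered the test only through PBKi and had to be higher there. Among the 229 tested genes with a DMSO mean under 0.5 CPM, 198 (86.5%) rose by edgeR and 0 fell, also at an unadjusted p under 0.05 (0 genes) and by DESeq2, limma-voom or edgeR's exact test (0 each), and 87 rose at least as much as NR3C1. Even after the rise its level stayed far below those of the other genes.

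The 250 bases before 2 of the 7 RefSeq starts of NR3C1 are shown, because they overlap no annotated exon and differ sharply in composition, and because counts per gene do not say which start the extra reads came from. Both are on the minus strand of GRCh37, written 5′ to 3′, with the CCAAT box, the TATA box and the GC box in capitals.
NR3C1 distal start, chr5:142815078-142815327: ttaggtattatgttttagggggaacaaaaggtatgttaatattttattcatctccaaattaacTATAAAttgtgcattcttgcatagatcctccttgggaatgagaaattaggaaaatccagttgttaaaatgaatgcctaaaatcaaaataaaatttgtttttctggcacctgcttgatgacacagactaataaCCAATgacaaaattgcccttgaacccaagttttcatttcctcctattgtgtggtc
NR3C1 start nearer the coding exons, chr5:142784921-142785170: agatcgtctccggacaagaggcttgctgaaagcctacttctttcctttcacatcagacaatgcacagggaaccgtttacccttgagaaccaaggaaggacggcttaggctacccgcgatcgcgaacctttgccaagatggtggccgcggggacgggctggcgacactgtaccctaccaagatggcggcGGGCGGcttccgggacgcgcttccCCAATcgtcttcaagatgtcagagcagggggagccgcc
The distal window held 32.8% G and C and 0 CpG, with a TATA box (TATAAA) beginning 187 bases and a CCAAT box 55 bases before the start. The other window held 59.6% G and C and 20 CpG, with a GC box beginning 62 bases and a CCAAT box 38 bases before the start. A TATA box on either strand was in 10.7% of all windows. Neither printed window held the forkhead, GATA or steroid receptor motif on either strand. An unprinted NR3C1 window, which lies in annotated exons, held the forkhead motif (TGTTTAC) beginning 59 bases before its start. The presence or absence of these letters says nothing about the factors.

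The p160 coactivators did not move together. NCOA1 (ENSG00000084676, chromosome 2 from 24714123 to 24993571, plus strand), the founding member of the family, ran from 159 through 173 to 212 CPM in DMSO and from 144 through 167 to 184 CPM in PBKi. The groups overlapped widely, with DMSO replicate 6 the highest and PBKi replicate 1 the lowest of the 12 samples. Means of 177 ± 20.8 and 167 ± 13.2 CPM (SD, n = 6 each) gave a log2 fold change of -0.087 (SE 0.074, adjusted p = 0.359 by edgeR; two-sided exact permutation p = 0.331). The 95% interval was -0.24 to 0.067, a PBKi to DMSO ratio of 0.846 to 1.05. In replicates 1 to 3 the value was -0.00044, and in replicates 4 to 6 it was -0.16 (adjusted p = 0.216 by edgeR).

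NCOA2 (ENSG00000140396, chromosome 8 from 71022017 to 71316043, minus strand), a coactivator of several steroid receptors, ran from 58.5 through 69.9 to 81.4 CPM in DMSO and from 76.9 through 84.7 to 97.6 CPM in PBKi. The groups overlapped by a single sample each, as 5 of 6 PBKi samples were above all DMSO samples and PBKi replicate 1 was below DMSO replicate 6. NCOA2 rose by 23.7%, from 69.9 ± 8.32 to 86.2 ± 7.02 CPM (SD, n = 6 each; log2 fold change 0.31, SE 0.076, 95% interval 0.15 to 0.47, adjusted p = 0.00348 by edgeR; two-sided exact permutation p = 0.00433). The change was 0.42 in replicates 1 to 3 (adjusted p = 0.000201 by edgeR). In replicates 4 to 6 it was 0.21 and did not pass (adjusted p = 0.105 by edgeR), and the difference between the sets was not tested.

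NCOA3 (ENSG00000124151, chromosome 20 from 46130631 to 46285621, plus strand), the coactivator also known as amplified in breast cancer, ran from 34.6 through 36.4 to 43.0 CPM in DMSO and from 37.0 through 43.6 to 46.5 CPM in PBKi. DMSO replicates 4 and 6 reached into the PBKi range, and 3 of 6 PBKi samples were above all DMSO samples. It rose by 15.4%, from 37.4 ± 2.99 to 43.0 ± 3.51 CPM (SD, n = 6 each; log2 fold change 0.21, SE 0.067, 95% interval 0.067 to 0.35, adjusted p = 0.0188 by edgeR; two-sided exact permutation p = 0.0216). Its adjusted p was the highest among the 6 calls, and without PBKi replicate 3 the log2 fold change was 0.18 (adjusted p = 0.0510 by edgeR). In replicates 1 to 3 it was 0.25 (adjusted p = 0.0171) and in replicates 4 to 6 it was 0.17 (adjusted p = 0.218, both by edgeR), the difference between them not being tested. NCOA3 shares 247 exonic bases with SULF2, which was at 0.415 CPM in DMSO and 0.264 CPM in PBKi.

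NCOR1 (ENSG00000141027, chromosome 17 from 15932379 to 16121499, minus strand), the scaffold of the corepressor complex, ran from 113 through 132 to 156 CPM in DMSO and from 128 through 151 to 167 CPM in PBKi. The groups overlapped, and DMSO replicates 1 to 3 (113 to 121 CPM) lay below DMSO replicates 4 to 6 (142 to 156 CPM). The means were 132 ± 18.2 and 150.3 ± 12.9 CPM (SD, n = 6 each), with a log2 fold change of 0.19 (SE 0.082, 95% interval 0.016 to 0.36, adjusted p = 0.0735 by edgeR; two-sided exact permutation p = 0.0714). Within replicates 1 to 3 it was 0.33 (adjusted p = 0.00121) and within replicates 4 to 6 it was 0.072 (adjusted p = 0.569, both by edgeR), and this difference was not tested. The call turned with other choices as well: the adjusted p by edgeR was 0.0244 with library totals in place of TMM, 0.0110 with the set of replicates as a covariate and 0.0127 without DMSO replicate 6. NCOR1 shares 340 exonic bases with TTC19 (104 and 99.9 CPM in DMSO and PBKi, adjusted p = 0.343 by edgeR) and 321 with PIGL, and its pseudogenes NCOR1P1 and NCOR1P3 had 0 counts.

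**Figure D2:**
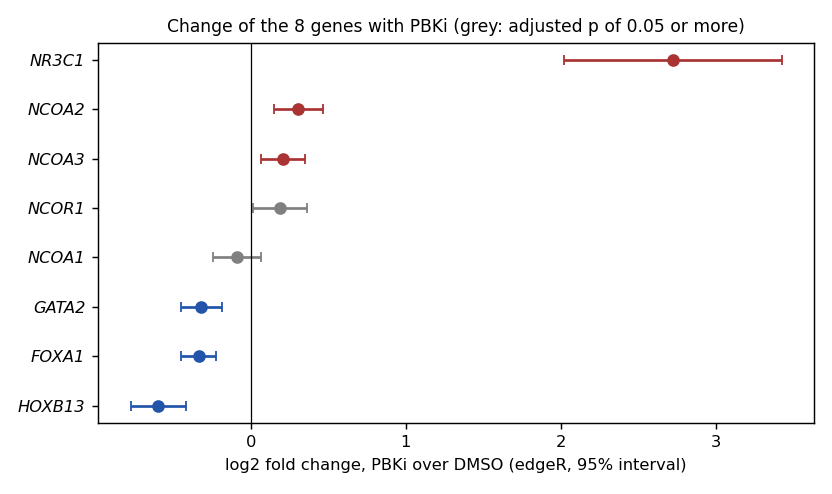
Log2 fold change of PBKi over DMSO for the 8 genes, with 95% intervals from edgeR, 12 samples; blue fell, red rose, grey had an adjusted p of 0.05 or more. NR3C1 stands at 2.72 with an interval of 2.02 to 3.43, and the other 7 lie between -0.60 and 0.31.

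**Figure D3:**
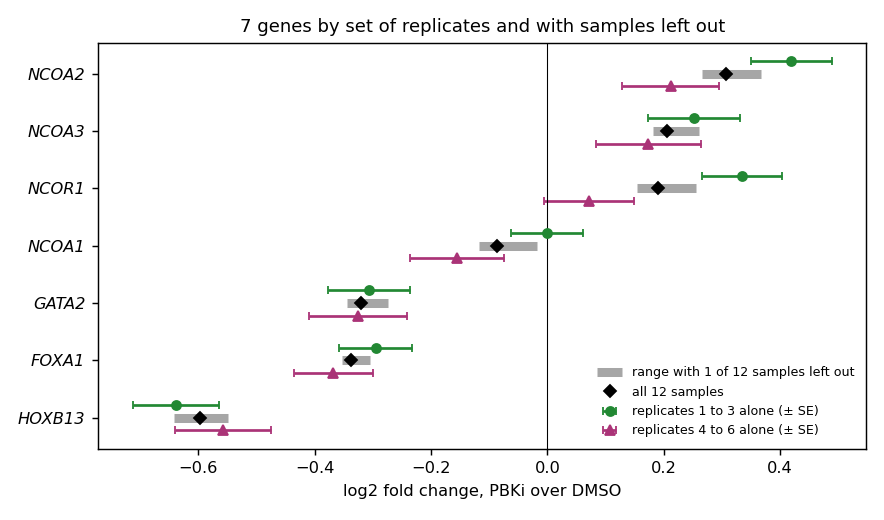
Log2 fold change of PBKi over DMSO for 7 genes (all but NR3C1) with all 12 samples (diamonds), in replicates 1 to 3 (circles) and 4 to 6 (triangles) alone, each ± SE, and the range when 1 of the 12 samples is left out (grey bars). The sets lie close for FOXA1, HOXB13 and GATA2, and farther apart for NCOA2 (0.42 and 0.21) and NCOR1 (0.33 and 0.072).

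Divided by the length of annotated exons, levels can be set side by side between genes. In DMSO the order was HOXB13 (99.3 ± 9.60 CPM per kb), FOXA1 (86.6 ± 4.75), GATA2 (48.1 ± 4.16), NCOA1 (19.7 ± 2.32), NCOR1 (8.46 ± 1.17), NCOA2 (6.98 ± 0.832), NCOA3 (4.44 ± 0.355) and NR3C1 (0.0250 ± 0.0106; SD, n = 6 each). HOXB13 and FOXA1 overlapped over the samples, as did NCOR1 and NCOA2, and the other neighbours in this order did not. The pioneer factors were among the more abundant transcripts of these cells. By the mean level per kb over all 12 samples of both groups, 96.8% of 14013 tested genes with a gene model lay below HOXB13. The share was 96.4% for FOXA1 and 92.8% for GATA2. The coregulators stood lower, with 81.4% of genes below NCOA1, 64.3% below NCOR1, 60.8% below NCOA2 and 49.0% below NCOA3, and only 1.44% lay below NR3C1.

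With PBKi the first and second places were exchanged, FOXA1 at 68.6 ± 4.00 and HOXB13 at 65.6 ± 9.03 CPM per kb (SD, n = 6 each), and their ranges again overlapped. When the longest transcript was used as the length, FOXA1 was at 109 CPM per kb in DMSO, above HOXB13, so the order of these 2 rests on the gene model. GATA2 followed at 38.5 ± 2.71 CPM per kb, and the places of the other 5 did not change. NCOR1 (9.62 ± 0.827) and NCOA2 (8.61 ± 0.701) still overlapped, and NR3C1 was last at 0.175 ± 0.0738 CPM per kb.

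The summed level of NCOA1, NCOA2 and NCOA3 was 31.2 ± 3.41 CPM per kb in DMSO and 32.3 ± 2.49 in PBKi (SD, n = 6 each), and the 2 ranges overlapped. Within that sum NCOA1 took 63.3% ± 1.01 in DMSO and 57.5% ± 0.689 in PBKi. NCOA2 took 22.4% ± 0.825 and 26.7% ± 0.764, and NCOA3 took 14.3% ± 0.794 and 15.8% ± 0.470. Samples of the groups did not overlap in any of the 3 shares, which sum to the whole and are therefore not independent.

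**Figure D4:**
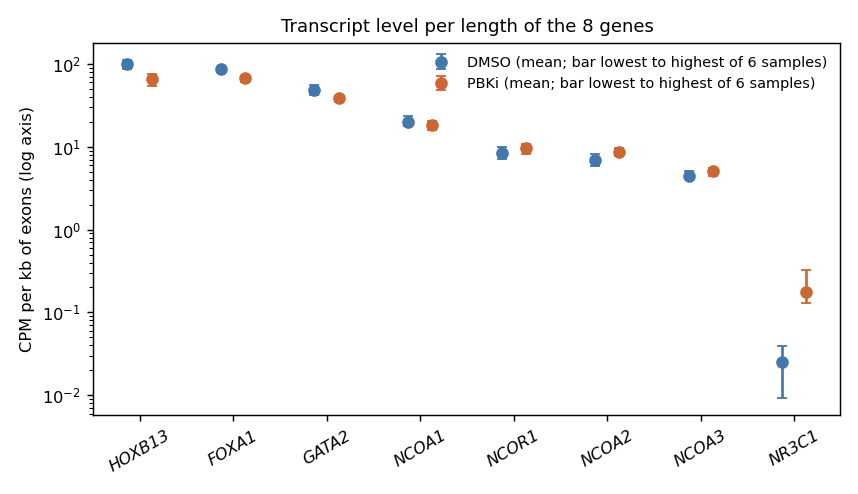
Level of the 8 genes in CPM per kb of annotated exons (log axis), mean of 6 samples with bars from the lowest to the highest sample, in order of the DMSO level. HOXB13 and FOXA1 lead in both groups, and NR3C1 lies far below the rest at 0.0250 in DMSO and 0.175 in PBKi.

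Across the 12 samples, the tested genes most like each member in log2 CPM were found by Pearson's r, as a description, since the treatment and the library composition are shared by all of them. Among them were ACLY (0.984) for FOXA1, ENTPD2 (0.981) for HOXB13, and COQ8A (0.968) and MRGBP (0.962) for GATA2. For NR3C1 they were FLCN (0.980) and VWA5A (0.980). For the coregulators they were BOD1L1 (0.978) and ICE1 (0.969) with NCOA1, MAP1B (0.982) and HIVEP2 (0.9746) with NCOA2, PIK3C2A (0.981) and CPLANE1 (0.977) with NCOA3, and FOXO3 (0.982) and NLGN4X (0.981) with NCOR1. No gene was named for more than 1 member.

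The share of other steroid receptor coactivators that passed was close to that of all tested genes (40% against 41.7%). By direction, 8.57% rose and 31.4% fell, against 20.1% and 21.5% of all tested genes. Of 35 tested besides the p160 genes, 3 rose, 11 fell and 21 did not pass, with a median log2 fold change of -0.059 against -0.012 over all tested genes. NCOA7, a coactivator of nuclear receptors outside the p160 family, rose from 40.03 ± 4.32 to 97.3 ± 14.9 CPM (SD, n = 6 each; log2 fold change 1.29, SE 0.094, adjusted p = 1.11e-08 by edgeR). RNF14 (0.23) and KAT2B (0.21) also rose, while the histone demethylase KDM3A (-0.42) and the arginine methyltransferase PRMT1 (-0.40) fell. The acetyltransferases EP300 (0.18, adjusted p = 0.181) and CREBBP (0.25, adjusted p = 0.0588), which p160 proteins recruit, did not pass, nor did CARM1 (-0.065, adjusted p = 0.432) or MED1 (0.13, adjusted p = 0.228, all by edgeR). Which direction held more calls depended on the samples, since 10 rose and 9 fell in replicates 1 to 3 alone. With library totals 9 rose and 10 fell, so falls were still more, by a smaller margin. The count that rose was 6 without DMSO replicate 5, 8 without DMSO replicate 6 and 6 without PBKi replicate 1.

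Of 20 tested corepressor genes besides NCOR1, 1 rose, 9 fell and 10 did not pass, with a median log2 fold change of -0.17. The shares were 5% rising and 45% falling, against 20.1% and 21.5% of all tested genes. HDAC3, the deacetylase held by NCOR1, fell from 63.2 ± 2.20 to 53.7 ± 1.03 CPM (SD, n = 6 each; log2 fold change -0.24, adjusted p = 0.000374 by edgeR), and the groups did not overlap. TBL1XR1, another subunit of the complex, was at -0.14 (adjusted p = 0.101 by edgeR). SAP30 (-0.44) and PHB2 (-0.42) fell most, TLE1 (0.30) was the single rise, and NRIP1 was at 0.05 (adjusted p = 0.619 by edgeR). Without DMSO replicate 5 the count that rose was 2.

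Among the 16 steroid receptor chaperones, 5 rose, 2 fell and 9 did not pass (median 0.017, and -0.0047 in replicates 1 to 3 alone). The share that passed, 43.8%, was near the 41.7% of all tested genes. By direction, 31.25% rose and 12.5% fell, against 20.1% and 21.5% of all tested genes. SGTA (0.41) and the HSP40 member DNAJA1 (0.31) rose most. FKBP5, an immunophilin that is itself a well-known target of both the androgen and the glucocorticoid receptor, fell from 259.8 ± 10.8 to 183.8 ± 14.9 CPM (log2 fold change -0.50, SE 0.057, adjusted p = 2.43e-06 by edgeR), and PTGES3, the p23 co-chaperone, fell by 0.23 on the log2 scale. HSP90AA1 was at 0.12 (adjusted p = 0.0582) and FKBP4 at -0.12 (adjusted p = 0.0989, both by edgeR).

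Of 27 tested lineage transcription factors and partners besides FOXA1, HOXB13 and GATA2, 4 rose, 8 fell and 15 did not pass (median 0.027). The share that passed, 44.4%, was again near that of all tested genes (41.7%). By direction, 14.8% rose and 29.6% fell, against 20.1% and 21.5% of all tested genes. SPDEF, an ETS factor of luminal cells, fell from 134 ± 17.1 to 64.7 ± 10.8 CPM (log2 fold change -1.04, SE 0.102, adjusted p = 3.86e-07 by edgeR), and GRHL2, an epithelial pioneer factor, fell from 253.9 ± 20.3 to 197.8 ± 9.67 CPM (-0.36, adjusted p = 7.82e-05 by edgeR). ONECUT2 (0.38) rose, and GATA3, scarce in these cells, rose from 0.911 to 1.37 CPM (0.67, adjusted p = 0.0451 by edgeR). FOXA2, a relative of FOXA1, had too few counts to be tested. ETV5, singled out after its value was seen, was at 0.626 CPM in DMSO and 3.14 in PBKi (2.31, adjusted p = 7.48e-08 by edgeR). Its DMSO samples (0.415 to 0.866 CPM) did not meet the count minimum by themselves. ETV5 thus entered the test through PBKi, and its call as a rise is no support. The count that rose was 1 without DMSO replicate 1 or PBKi replicate 6, and 2 without DMSO replicate 3, PBKi replicate 3 or PBKi replicate 4.

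Besides NR3C1, 7 of 25 tested steroid and related nuclear receptor genes rose, 2 fell and 16 did not pass (median 0.13). That was 36% passing, 28% rising and 8% falling, against 41.7%, 20.1% and 21.5% of all tested genes. The mineralocorticoid receptor NR3C2, the nearest relative of NR3C1, rose from 9.43 ± 1.08 to 15.2 ± 0.921 CPM (SD, n = 6 each; log2 fold change 0.70, SE 0.081, adjusted p = 2.89e-06 by edgeR) with no overlap between the groups. NR1D2 (0.37) also rose, and NR4A1 (-0.54) and ESRRA (-0.23) fell. The count that fell was 1 without DMSO replicate 2, DMSO replicate 5, PBKi replicate 2, PBKi replicate 3 or PBKi replicate 6.

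**Figure D5:**
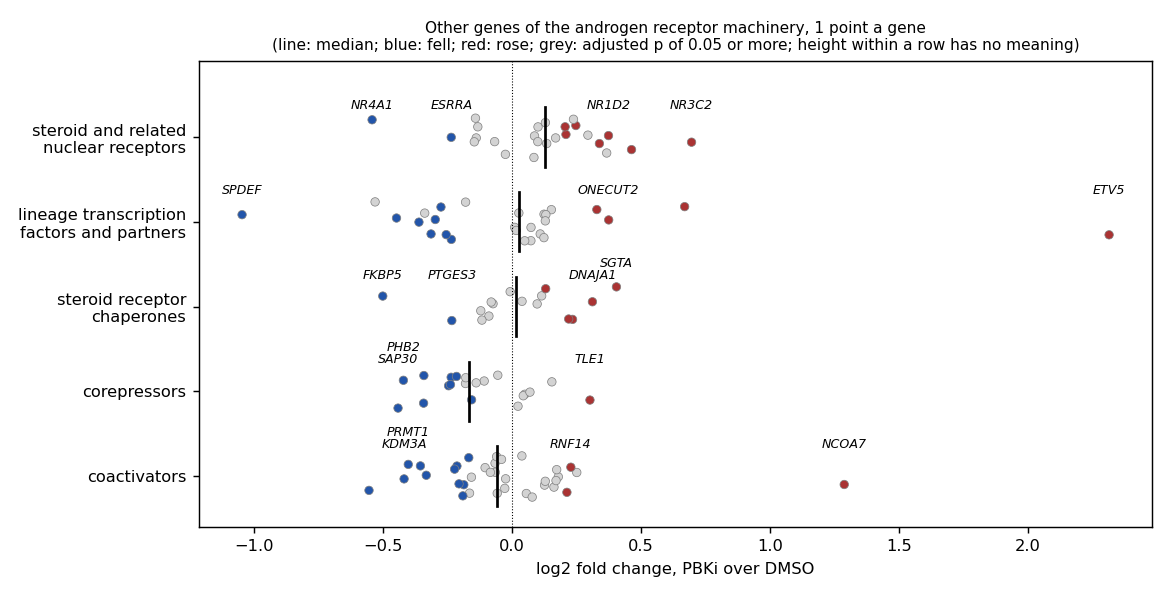
Log2 fold change of PBKi over DMSO for the tested genes of 5 lists other than the 8 genes (1 point a gene, black line the median of the list), with the extreme genes named. NCOA7 (1.29) and ETV5 (2.31) lie farthest to the right, SPDEF (-1.04) farthest to the left, and most points lie near 0.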

How the data were processed

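RNAseq was measured in 12 C4-2 samples. According to the study's methods and the labels, the authors aligned single-end reads of 40 bases to GRCh37 (Ensembl 64) with TopHat2 2.0.4 and counted reads per gene with HTSeq 0.5.3p9; the 47 deposited lane files hold raw counts, which were summed over lanes per sample. Reads mapping to several places were not counted, and the strand setting is not stated. Genes reaching 10 counts in 6 or more samples entered edgeR 4.0.16 (R 4.3.3; TMM, quasi-likelihood test, no covariates, Benjamini-Hochberg at 0.05). CPM values are TMM-normalised, and for exact permutation tests a prior count of 2 was added before the log2. Intervals from counts cover counting error only. The procedure was tested on simulated data in which only well-covered genes changed, and without sets of replicates. That test covers neither a change in a gene as scarce as NR3C1 nor log2 changes under 0.5. Gene lengths and coordinates came from GENCODE 44 mapped to GRCh37, and promoter sequences from RefSeq. The members and lists were chosen with earlier results of these data known. Per list, the text names the 2 largest rises and falls among genes with adjusted p under 0.05 and mean log2 CPM of at least 3. Members in a list were counted in this ranking, so HOXB13 took 1 of the 2 places for falls among lineage factors. A few genes fixed by name and the 2 genes most correlated with each member are named besides. Alternatives were DESeq2 1.42.0, limma-voom (limma 3.58.1), edgeR's exact test, other scalings, count filters, lanes, thresholds and sets of samples; the omission of PBKi replicates 3 and 6 together was chosen after seeing the data. The androgen receptor gene itself and a few genes that this rule names are not reported here.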

Additional observations from a re-analysis of the deposited data

Results flagged for a closer look

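NR3C1 in PBKi replicate 3 was 2.97 CPM, against 1.20 to 1.45 CPM in the other 5 PBKi samples, and was the 1 sample far from its group among the 16 groups of 6 values examined (8 genes in each of DMSO and PBKi); chance alone marks about 1 group in 20. It also had the highest share of reads outside annotated genes (9.30%), and the part of that in the value was not tested.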

How the results depend on the processing

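With 1 sample left out in turn, 2 to 4 of the 8 genes rose and 3 to 3 fell. Over all genes 2577 to 3342 rose and 2618 to 3216 fell. The log2 fold change ranged from -0.35 to -0.31 for FOXA1, -0.64 to -0.55 for HOXB13, -0.34 to -0.27 for GATA2, -0.12 to -0.017 for NCOA1, 0.27 to 0.37 for NCOA2, 0.18 to 0.26 for NCOA3, 0.15 to 0.26 for NCOR1 and 2.40 to 3.00 for NR3C1. In lists, coactivators rose in 2 to 8 and fell in 10 to 12, corepressors 1 to 2 and 8 to 9, chaperones 4 to 5 and 2 to 2, lineage factors 1 to 5 and 6 to 9, and nuclear receptors 7 to 10 and 1 to 3. NCOA3 did not pass without PBKi replicate 3, and NCOR1 passed without DMSO replicate 5 (adjusted p = 0.0417), DMSO replicate 6 (0.0127) or PBKi replicate 1 (0.0313, all by edgeR).

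FOXA1, HOXB13 and GATA2 kept direction and call in each of 25 alternatives. NR3C1 did so in the 24 that could be fitted, as it was not tested at 50 counts. It entered the main test only through PBKi and could be called only as a rise, so this is no support for its call. No member changed sign in any alternative fitted. The majority of calls turned in some: over all genes 3602 rose and 2402 fell with library totals (also more rises than falls without the count filter, in either set of replicates, at a change of 0.5 or more, and without any 1 DMSO sample). In replicates 4 to 6 alone, with fewer samples, 1273 genes rose and 1207 fell, 1 member rose, NCOA2 was at 0.21 and NCOA3 at 0.17 without passing. There 6 coactivators fell, 0 corepressors rose by edgeR (1 at an unadjusted p under 0.05), 2 chaperones rose and 1 fell, 1 lineage factor rose and 5 fell, and 2 nuclear receptors rose and 1 fell (median 0.051). In replicates 1 to 3 alone NCOR1 passed at 0.33, and 10 coactivators (9 fell), 7 lineage factors and 11 nuclear receptors rose (median 0.21), while the chaperone median was -0.0047. With a change of 0.5 or more on the log2 scale required, 1278 genes rose and 626 fell, with 1 member in each direction; at an adjusted p under 0.01, 2073 genes fell. NCOR1 also passed with library totals (0.24), no count filter (0.19), at least 50 counts (0.21), lanes 6 to 8 (0.21) and the set of replicates as a covariate (0.20). Library totals gave 9 coactivators, 2 corepressors and 11 nuclear receptors that rose and 1 nuclear receptor that fell; limma-voom gave 5 coactivators; 50 counts gave 7 coactivators and 2 lineage factors; the covariate gave 8 coactivators that rose and 4 nuclear receptors that fell. With PBKi replicates 3 and 6 both left out, NCOA3 was at 0.15 without passing, 7 coactivators fell, 1 lineage factor rose and 1 nuclear receptor fell. The causes of these shifts other than fewer samples were not tested. With the longest transcript as length, FOXA1 was at 109 and 86.2 CPM per kb in DMSO and PBKi, GATA2 at 62.3 and 49.9, NCOA1 at 24.0 and 22.5, NCOA2 at 8.29 and 10.2 and NCOR1 at 11.97 and 13.6.

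Samples with the same replicate number deviated together only in part. Their correlations were 0.089 to 0.299 (mean 0.198), against a mean of -0.040 for different numbers. Of 6 DMSO samples, 4 correlated best with their own number. The main fit had no covariates and did not use the numbers to pair samples. With the replicate block, NCOR1 passed at 0.19 (adjusted p = 0.00771 by edgeR), 10 coactivators and 2 corepressors rose and 4 nuclear receptors fell. Depth limits NR3C1, with 1 to 10 counts per DMSO sample.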
